A study of Mus musculus with 4 samples.

Results

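The fatty acid uptake and oxidation enzymes of the mouse heart were taken as 33 named genes, matched by symbol among the 55401 rows of the deposited gene table. All 33 were found and all 33 passed the filter on low counts, which left 18475 genes. They were ordered in 8 steps: uptake and delivery, activation and acyl-CoA turnover, the carnitine shuttle, the acyl-CoA dehydrogenases, the later steps of the spiral, the auxiliary enzymes for unsaturated chains, electron transfer, and storage and uncoupling.

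Mouse heart poly(A) RNA was sequenced in 4 libraries at day 28. The MI group (2 libraries, MI 1 and MI 2) came from hearts with myocardial infarction after a ligation operation, and the Sham group (2 libraries, Sham 1 and Sham 2) from hearts after thoracotomy without ligation. The series text describes the tissue as infarcted cardiac tissue for MI and left ventricle for Sham. Strain, sex, age and the number of animals behind a library are not given in the labels, so the spread between libraries may be technical.

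The heart burns mainly fatty acids. Lipoprotein lipase frees them at the vessel wall, CD36 and binding proteins bring them into the myocyte, acyl-CoA synthetases activate them, and the carnitine shuttle carries the acyl group across the mitochondrial membranes. There each turn of the β-oxidation spiral oxidizes, hydrates, oxidizes again and cleaves the chain, and the electrons pass through the electron transfer flavoprotein to the respiratory chain. Many of these genes are known targets of the nuclear receptor PPARα, and the failing heart is known for a lower capacity of this pathway.

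The libraries held 72857907 (MI 1) and 75979320 (MI 2) estimated counts, against 72485370 (Sham 1) and 66624106 (Sham 2). All 12 cardiomyocyte markers were present in every library, with summed levels of 17294 and 17462 FPKM in MI hearts and 16400 and 18089 FPKM in Sham hearts, so the groups overlapped. FPKM is the fragment abundance per gene length and library size, without the further scaling used for the differences between groups below. Both Sham and MI held libraries that stood apart. Atrial markers summed to 2675 and 1890 FPKM in MI hearts, against 174 FPKM in Sham 1 and 5123 FPKM in Sham 2. Nppa, a natriuretic peptide also known to be made by the stressed ventricle, gave most of this in MI hearts: without it the other 7 markers summed to 43.1 and 35.0 FPKM in MI hearts, 22.8 FPKM in Sham 1 and 1610 FPKM in Sham 2. Myl7, the atrial myosin light chain, was at 1.2 and 0.41 FPKM in MI hearts, 0.46 FPKM in Sham 1 and 1128 FPKM in Sham 2. Sham 2 thus carried atrial transcripts, which its left ventricle description does not foresee, and adipocyte transcripts as well (Adipoq listed at 0 in MI 1, MI 2 and Sham 1 and at 16.0 FPKM in Sham 2). MI 1 carried lung epithelial transcripts, with a summed level of 288 FPKM against 0.17 FPKM in MI 2, and 0.12 and 0.86 FPKM in the Sham hearts, and skeletal muscle transcripts (13.7 FPKM against 1.73 FPKM in MI 2, and 2.06 and 2.65 FPKM in the Sham hearts). All 7 fibroblast markers were higher in both MI libraries than in both Sham libraries (summed level 495 and 283 FPKM in MI hearts, 85.6 and 128 FPKM in Sham hearts), and so were 6 of 7 endothelial markers. So were 3 of 7 macrophage markers and 3 of 7 smooth muscle and pericyte markers. Of the 12 cardiomyocyte markers, 3 were higher and 3 lower in both MI libraries. Of 26265 genes compared in FPKM, 7933 were higher in both MI libraries. The part of these marker levels in the results that follow was not tested.

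**Figure D1:**
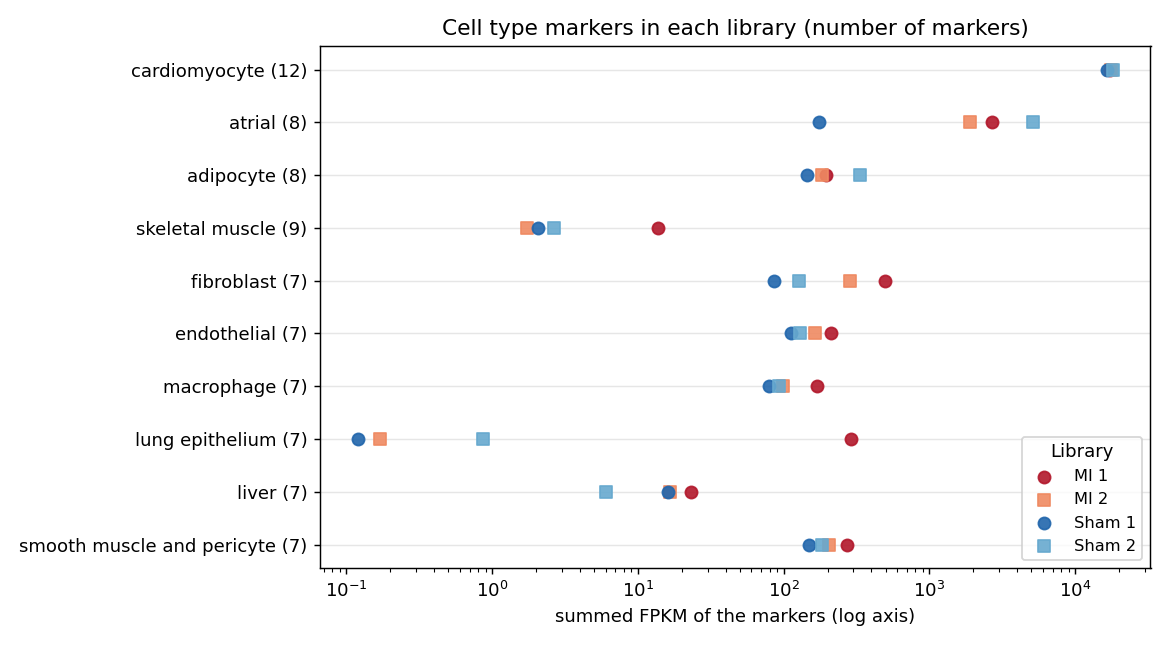
Summed FPKM (log axis) of the markers of 10 cell types or tissues in each library; each point is 1 library, and the number of markers is in brackets. Cardiomyocyte markers lie together (16400 to 18089 FPKM), while Sham 2 lies apart for atrial markers (5123 FPKM) and MI 1 for lung epithelium (288 FPKM).

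By level per length, the pathway in these hearts was dominated by Fabp3, the heart-type fatty acid binding protein that carries fatty acids through the cytosol. It stood at 3208 and 3446 FPKM in MI hearts, against 4372 and 3572 FPKM in Sham hearts, and made up 52.1% and 52.7% of the summed FPKM of the 33 genes in MI hearts, against 54.0% and 51.7% in Sham hearts. Of the 33 genes, 11 averaged above 100 FPKM, 19 between 10 and 100 FPKM, and 3 under 10 FPKM. After Fabp3 came Acadl (354 FPKM), Acaa2 (323 FPKM), Lpl (280 FPKM), Acot13 (256 FPKM) and Etfb (255 FPKM), as means over the 4 libraries. The lowest were Cpt1a (6.52 FPKM), Acad9 (3.36 FPKM) and Acsl6 (0.522 FPKM). The 33 genes together summed to 6161 and 6538 FPKM in MI hearts, against 8102 and 6908 FPKM in Sham hearts, and took 1.46% and 1.55% of all estimated counts in MI hearts, against 1.88% and 1.64% in Sham hearts. The share of the whole pathway was thus lower in both MI libraries, and the MI 2 and Sham 2 libraries lay close together.

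**Figure D2:**
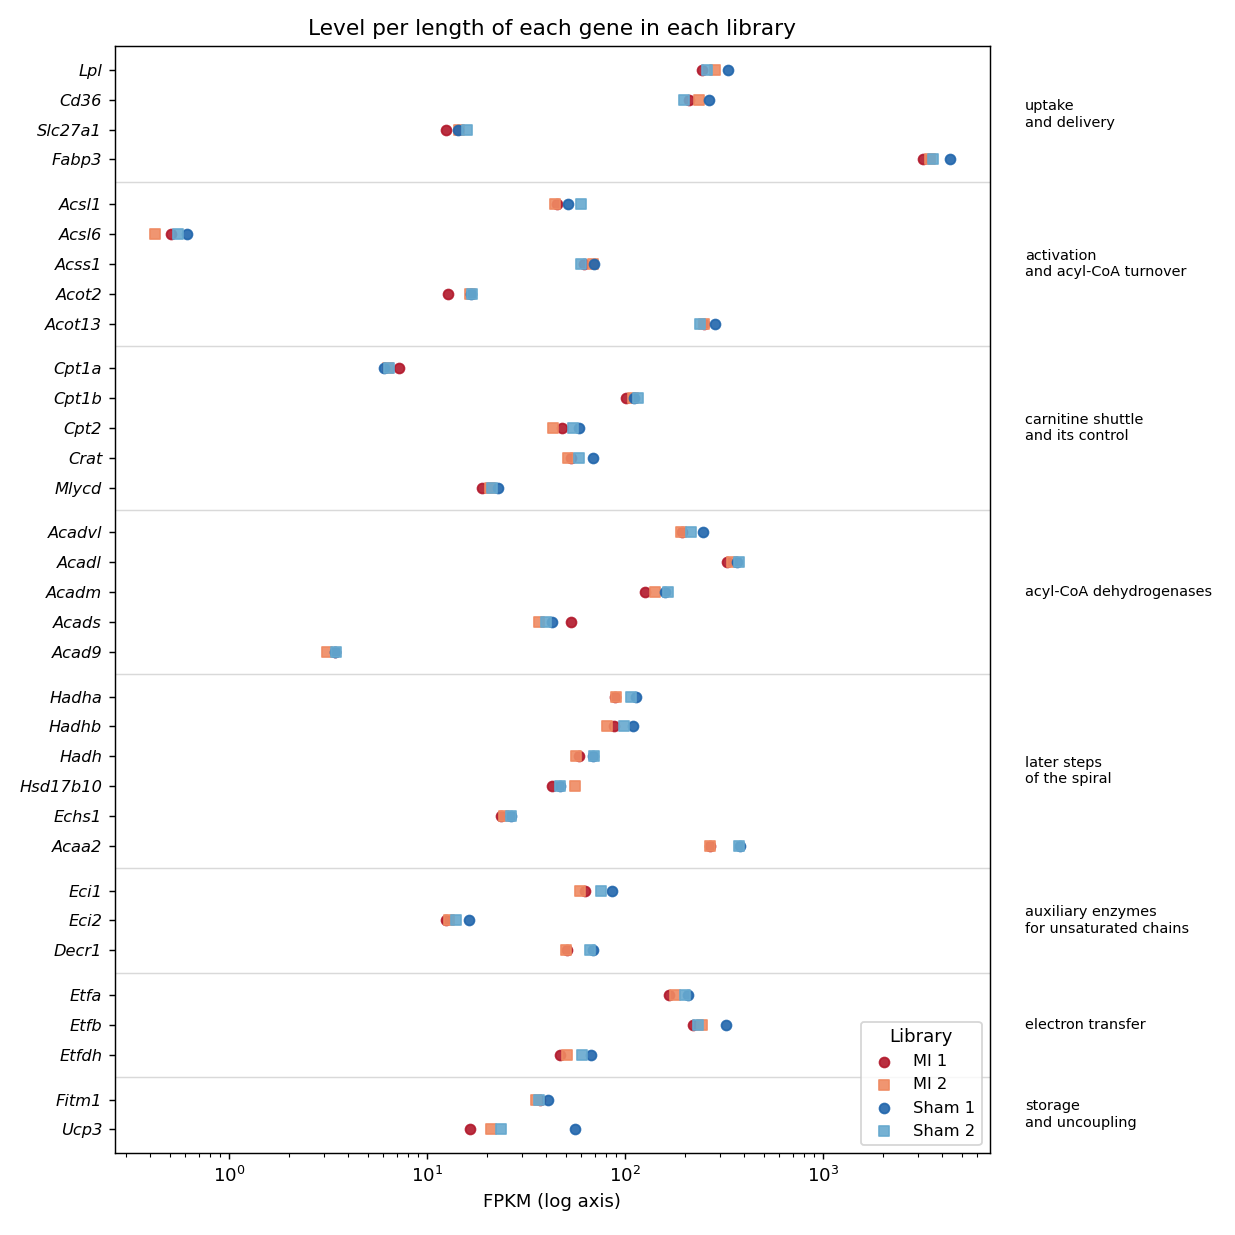
FPKM (log axis) of each of the 33 genes in each library, grouped by step; each point is 1 library. Fabp3 lies about a decade above the next gene, and Acsl6 (0.522 FPKM on average) is the lowest.

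All 33 genes had a negative log2 difference between MI and Sham hearts with TMM scaling (29 when scaled to cardiomyocyte markers), where 49.8% of all genes tested did, with a median of -0.48 against 0.00 over all genes tested. The values compared here are CPM, the estimated counts divided by the TMM-scaled library size, and differences are MI over Sham on the log2 scale with the standard error (SE) of the fit. For 27 of the 33 genes each MI library was below each Sham library, against 21.9% of all genes tested. In edgeR's quasi-likelihood test 15 of the 33 genes were lower and 0 higher at an unadjusted p under 0.05, against 4.51% of all genes tested that were lower and 7.12% that were higher. With Benjamini-Hochberg adjustment over all genes edgeR called 0 of the 33 and 0 of all genes (0%), and the smallest adjusted p of the 33 was 0.29. DESeq2, run as an alternative, called 5 of the 33 lower (Acsl1, Hadh, Acaa2, Eci1 and Decr1), against 1.49% of the genes it tested. The 6 genes whose libraries overlapped between groups were Lpl, Cd36, Acss1, Acot13, Acads and Hsd17b10. In bulk tissue, fewer cells of a type and less RNA per cell cannot be told apart.

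The size of the differences depended on single libraries. The log2 difference of 10 of the 33 genes moved by over 1.5 times or turned in sign without MI 1, of 7 without MI 2, of 14 without Sham 1 and of 7 without Sham 2. The median was -0.32 without MI 1, -0.55 without MI 2, -0.30 without Sham 1 and -0.55 without Sham 2. In TMM-scaled CPM, MI 1 was the lowest library for 30 of the 33 genes, and whether this count is particular to them was not tested. Sham 1 was the highest for 30, where 27.5% of all genes tested were highest in Sham 1. Both counts hold for TMM scaling and not for FPKM. In FPKM, MI 2 lay below MI 1 for many genes, among them Acsl1, Cpt2, Crat, Acadvl, Hadhb, Hadh, Acaa2, Eci1 and Decr1. For others, among them Lpl, Cd36, Fabp3 and Acadl, MI 1 lay below MI 2, and the summed FPKM was lowest in MI 1 (6161). Sham 2 lay above Sham 1 in FPKM for Acsl1, Cpt1b, Acadl, Acadm and Hadh, among others. MI 1 was also the library with lung transcripts and the highest summed fibroblast markers, and the part of these was not tested. Across the 33 genes the median log2 ratio was -0.69 for MI 1 over Sham 1 and -0.20 for MI 2 over Sham 2. Within groups, the median log2 ratio was -0.22 for MI 1 over MI 2 and 0.26 for Sham 1 over Sham 2.

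**Figure D3:**
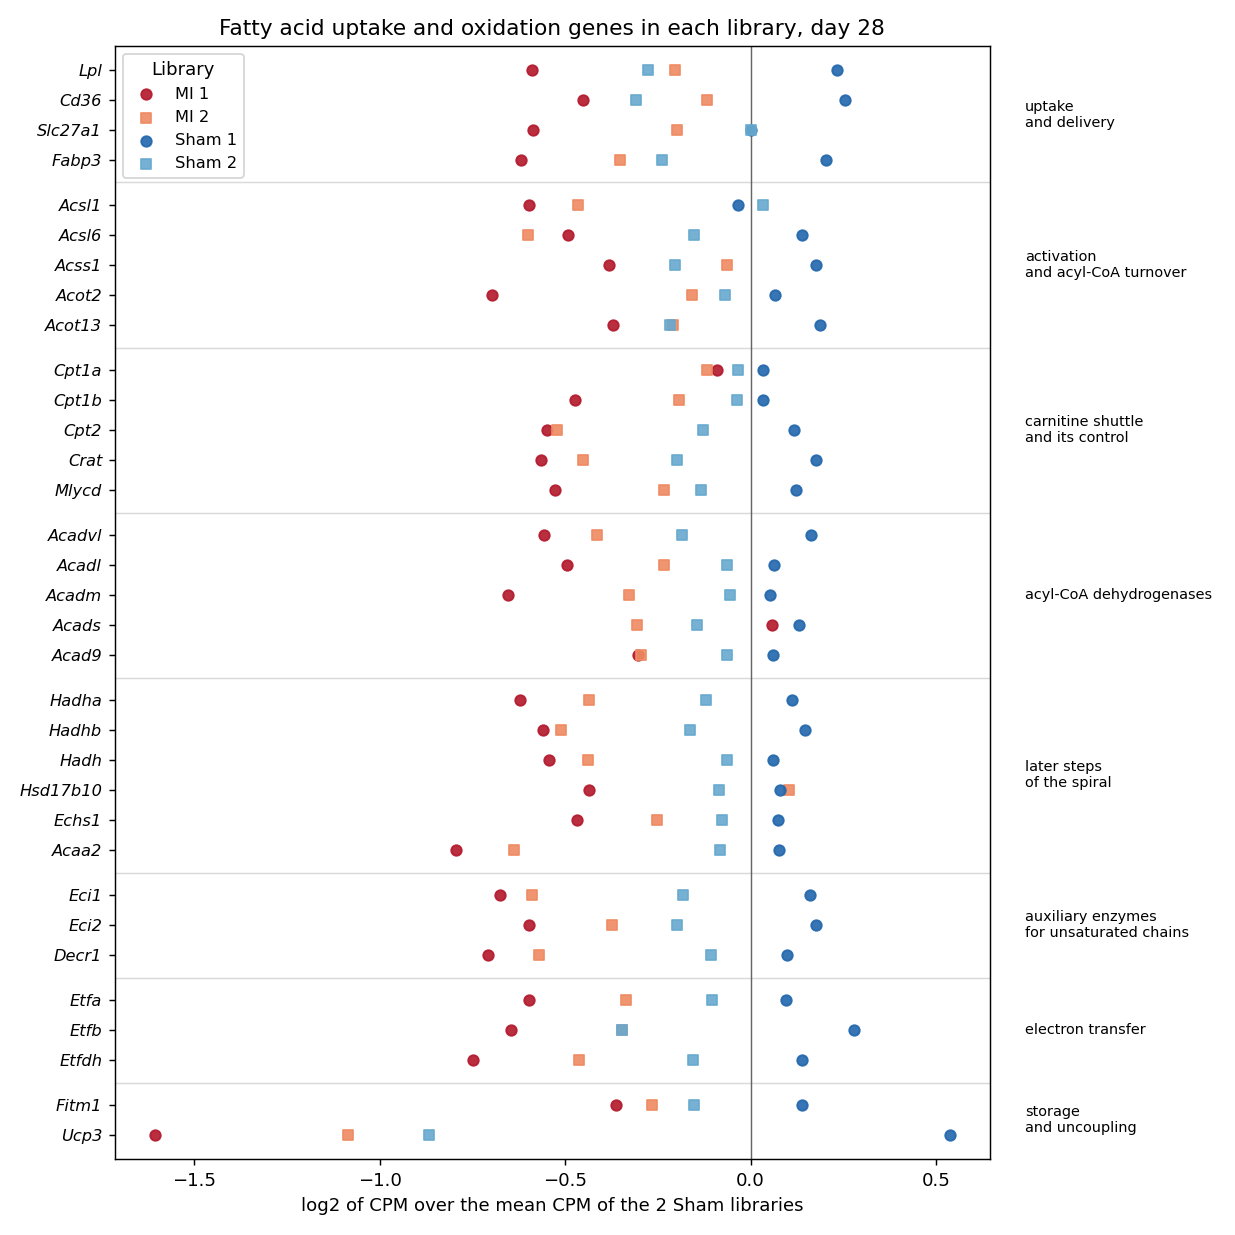
CPM of each gene in each library on a log2 scale, relative to the mean of the Sham libraries (vertical line at 0); each point is 1 library and genes are grouped by step. The MI points lie to the left of both Sham points for 27 of the 33 genes, MI 1 is leftmost for 30, and Sham 1 is rightmost for 30.

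Scaling moved the size of these differences. With TMM scaling the log2 differences of the 12 cardiomyocyte markers ran from -0.59 (Tnni3) to 0.17 (Mybpc3). The overlap of their summed levels given above was in FPKM. On log2(FPKM + 1) the median of the 33 genes was -0.24. The libraries were also scaled to the summed counts of the 12 cardiomyocyte markers. The markers were not weighted equally: Myh6 alone gave 1540423 of the 4229785 marker counts in MI 1. With this scaling the median of the 33 genes was -0.23 and that of all genes tested 0.26. The change adds nearly the same amount to every gene (0.23 to 0.27 for the members). Under this scaling 29 of the 33 genes had a negative log2 difference (26.9% of all genes tested), 20 had both MI libraries below both Sham libraries (8.11%), and 2, Acaa2 and Decr1, were lower at an unadjusted p under 0.05 in edgeR (1.5%). The 4 genes nearest to 0 with TMM scaling, Acads, Cpt1a, Hsd17b10 and Acss1, came to lie above it by this shift, with log2 differences of 0.16, 0.15, 0.10 and 0.04. Cpt1a was then the 1 gene of the 33 with both MI libraries above both Sham libraries, as were 7845 of the 18475 genes tested.

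**Figure D4:**
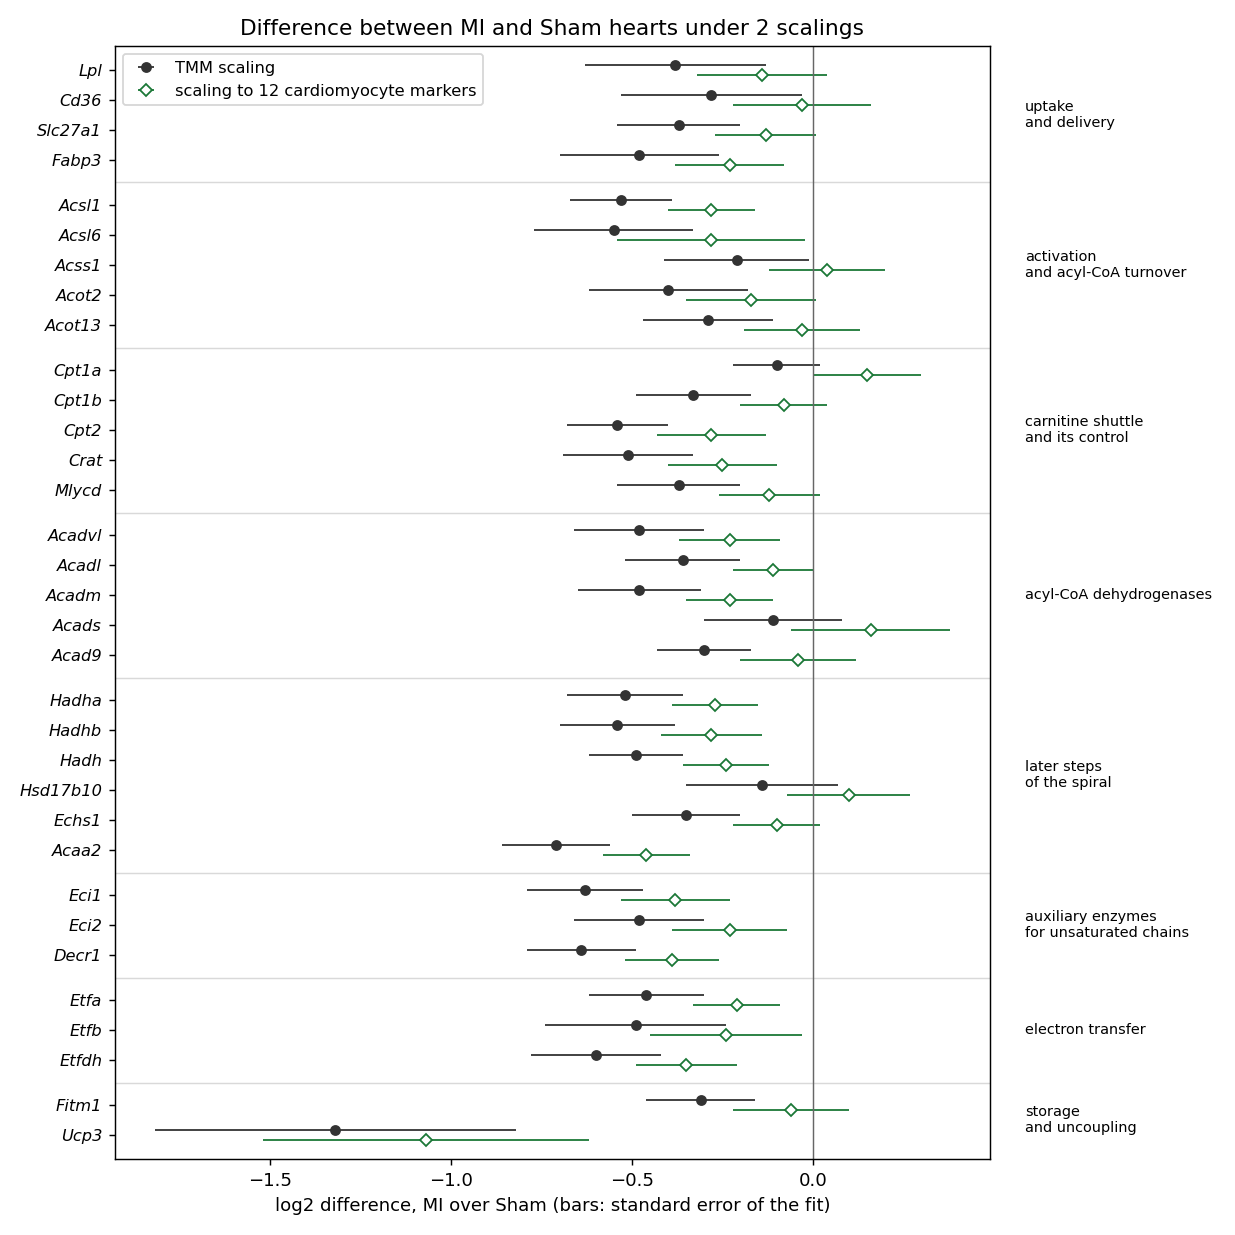
Log2 difference (MI over Sham) of each gene with its standard error, with TMM scaling (filled circles) and scaled to the 12 cardiomyocyte markers (open diamonds); the vertical line is 0. With TMM scaling all 33 lie left of 0, while with cardiomyocyte scaling 4 lie right of it (Acads, Cpt1a, Hsd17b10 and Acss1).

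For uptake and delivery, 0 of 4 genes had an unadjusted p under 0.05 in edgeR, and the median log2 difference was -0.38. Fabp3 had 2521 and 3034 CPM in MI hearts, against 4461 and 3284 CPM in Sham hearts, a log2 difference of -0.48 ± 0.22 (SE). The MI values lay below the Sham values, but MI 2 was close to Sham 2. Lpl, the lipase at the vessel wall, had 2442 and 3190 CPM in MI hearts and 4315 and 3031 CPM in Sham hearts (-0.38 ± 0.25). Cd36, the membrane transporter of long-chain fatty acids, had 723 and 911 CPM in MI hearts and 1179 and 798 CPM in Sham hearts (-0.28 ± 0.25). For both genes the groups overlapped. Without Sham 1 the log2 difference was 0.04 for Cd36, -0.10 for Lpl and -0.24 for Fabp3, and the median of the step was -0.17 (-0.19 without MI 1, and -0.57 without MI 2 or without Sham 2). Slc27a1, a fatty acid transport protein, had a log2 difference of -0.37 ± 0.17.

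For activation and acyl-CoA turnover, 1 of 5 genes had an unadjusted p under 0.05, and the median log2 difference was -0.40 (-0.20 without MI 1). Acsl1 (chromosome 8, 46471037 to 46536051), the main long-chain acyl-CoA synthetase of the heart, had 453 and 496 CPM in MI hearts, against 669 and 701 CPM in Sham hearts. Its log2 difference was -0.53 ± 0.14, with an edgeR adjusted p of 0.327 and a DESeq2 adjusted p of 0.02. Both Sham libraries lay well above both MI libraries, and leaving out any 1 library kept the difference between -0.46 and -0.58. Acot13, a thioesterase that splits acyl-CoA, was the most abundant gene of the step and had 178 and 199 CPM in MI hearts and 262 and 198 CPM in Sham hearts (-0.29 ± 0.18), with overlapping groups. The thioesterase Acot2 (-0.40 ± 0.22), the acetyl-CoA synthetase Acss1 (-0.21 ± 0.20) and the synthetase Acsl6 (-0.55 ± 0.22) completed the step. Acot2 has the near-identical copy Acot1, and Acsl6 overlaps the antisense gene Gm12224, whose level was 117% of its own, so the values of both are uncertain.

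Acsl1 took 86.6% and 87.5% of the summed FPKM of the long-chain synthetases Acsl1, Acsl3, Acsl4, Acsl5 and Acsl6 in MI hearts, against 89.7% and 90.0% in Sham hearts. Acsl5, which is not one of the 33 genes, took 10.1% and 7.37% in MI hearts and 5.47% and 4.52% in Sham hearts. The shares did not overlap between the groups. They rest on 2 libraries each and carry no test.

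For the carnitine shuttle, 2 of 5 genes had an unadjusted p under 0.05, and the median log2 difference was -0.37 (-0.22 without MI 1). Cpt2, the inner-membrane transferase that returns the acyl group to CoA, had 109 and 111 CPM in MI hearts and 173 and 146 CPM in Sham hearts (-0.54 ± 0.14). Crat, the acetyltransferase that buffers acetyl-CoA as acetylcarnitine, had 275 and 297 CPM in MI hearts and 459 and 354 CPM in Sham hearts (-0.51 ± 0.18). Both genes had both MI libraries below both Sham libraries. Cpt1b (chromosome 15, 89416405 to 89425863), the muscle form of the outer-membrane transferase that commits long chains to oxidation, had 324 and 394 CPM in MI hearts and 461 and 439 CPM in Sham hearts (-0.33 ± 0.16). It overlaps the same-strand gene Gm44502, at 5.16% of its level. Mlycd, which breaks down the CPT1 inhibitor malonyl-CoA, had a log2 difference of -0.37 ± 0.17.

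Cpt1a, the liver form of the same transferase, had the smallest difference of the 33 genes, with 52.8 and 51.9 CPM in MI hearts, against 57.6 and 54.9 CPM in Sham hearts (-0.10 ± 0.12; 0.15 ± 0.15 with cardiomyocyte scaling, where the sign turned). In FPKM it stood at 7.23 and 6.34 in MI hearts and 6.08 and 6.43 in Sham hearts. Cpt1a made up 6.71% and 5.48% of Cpt1a and Cpt1b together in MI hearts, against 5.22% and 5.23% in Sham hearts, so both MI shares lay above both Sham shares.

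Among the acyl-CoA dehydrogenases, which carry out the first oxidation of each turn on chains of different length, 2 of 5 had an unadjusted p under 0.05, and the median log2 difference was -0.36. Acadvl, for very long chains, had 499 and 551 CPM in MI hearts and 823 and 646 CPM in Sham hearts (-0.48 ± 0.18). Acadl, for long chains and the most abundant of the 5, had 622 and 745 CPM in MI hearts and 915 and 838 CPM in Sham hearts (-0.36 ± 0.16). Acadm, for medium chains, had 472 and 592 CPM in MI hearts and 770 and 715 CPM in Sham hearts (-0.48 ± 0.17). The MI and Sham values of these 3 genes did not overlap. Acads, for short chains, had 115 and 89.3 CPM in MI hearts and 120.8 and 100.5 CPM in Sham hearts (-0.11 ± 0.19), with overlapping groups and a sign that turned with cardiomyocyte scaling. Acad9, known also as an assembly factor of complex I, had a log2 difference of -0.30 ± 0.13.

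In the later steps of the spiral, 4 of 6 genes had an unadjusted p under 0.05, and the median log2 difference was -0.51. Acaa2, the mitochondrial 3-ketoacyl-CoA thiolase that cleaves off acetyl-CoA, had 389 and 433 CPM in MI hearts and 711 and 637 CPM in Sham hearts. Its log2 difference was -0.71 ± 0.15, which is 39.0% lower, with an edgeR adjusted p of 0.29 and a DESeq2 adjusted p of 0.0014. The replicates lay close together in FPKM too, at 268.9 and 267.1 in MI hearts and 378.0 and 376.4 in Sham hearts. Leaving out any 1 library kept the log2 difference between -0.63 and -0.79, and it was -0.46 with cardiomyocyte scaling.

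The α and β subunits of the mitochondrial trifunctional protein, which hydrates, oxidizes and cleaves long chains, had close differences. Hadha had 740 and 842 CPM in MI hearts and 1229 and 1047 CPM in Sham hearts (-0.52 ± 0.16), and Hadhb had 552 and 570 CPM in MI hearts and 900 and 726 CPM in Sham hearts (-0.54 ± 0.16). The ratio of Hadha to Hadhb in FPKM was 1.01 and 1.12 in MI hearts and 1.03 and 1.09 in Sham hearts, so it overlapped. The genes lie head to head on chromosome 5, Hadha on the minus strand (30118304 to 30155162) and Hadhb on the plus strand (30155248 to 30184593), with 85 bases between them. This shared stretch is shown because both subunits start from it: it holds 9 CpG dinucleotides (capitals) and has a GC content of 69.4%. It is read from the RefSeq promoter sequence of GRCm38.p6, plus strand, chr5:30155163-30155247.
Hadha-Hadhb spacer: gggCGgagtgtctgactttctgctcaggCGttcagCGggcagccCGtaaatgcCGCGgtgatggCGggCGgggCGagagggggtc

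Hadh, the dehydrogenase for medium and short hydroxyacyl chains, had 278 and 299 CPM in MI hearts and 423 and 388 CPM in Sham hearts (-0.49 ± 0.13), with a DESeq2 adjusted p of 0.047. The MI values lay below the Sham values. Echs1, the short-chain enoyl-CoA hydratase, had a log2 difference of -0.35 ± 0.15. Hsd17b10, a short-chain dehydrogenase that is also part of mitochondrial RNase P, had 53.0 and 77.0 CPM in MI hearts and 75.7 and 67.6 CPM in Sham hearts (-0.14 ± 0.21), with MI 2 the highest library and a sign that turned with cardiomyocyte scaling.

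All 3 auxiliary enzymes, which prepare unsaturated chains for the spiral, had an unadjusted p under 0.05, and their median log2 difference was -0.63. Decr1, the 2,4-dienoyl-CoA reductase (chromosome 4, 15917240 to 15945507), had 189 and 208 CPM in MI hearts and 331 and 287 CPM in Sham hearts (-0.64 ± 0.15, 35.8% lower; DESeq2 adjusted p 0.01). Eci1, the main mitochondrial enoyl-CoA isomerase (chromosome 17, 24426641 to 24439348), had 127 and 135 CPM in MI hearts and 227 and 179 CPM in Sham hearts (-0.63 ± 0.16; DESeq2 adjusted p 0.038). The MI and Sham values of this pair did not overlap. Eci2, an isomerase also found in peroxisomes, had 65.6 and 76.6 CPM in MI hearts and 112 and 86.4 CPM in Sham hearts (-0.48 ± 0.18); it overlaps the antisense gene Gm16984, at 5.08% of its level.

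For electron transfer, 2 of 3 genes had an unadjusted p under 0.05, and the median log2 difference was -0.49 (-0.74 without Sham 2). Etfa, the α subunit of the flavoprotein that takes electrons from the dehydrogenases, had 291 and 349 CPM in MI hearts and 471 and 410 CPM in Sham hearts (-0.46 ± 0.16). Its partner Etfb, the most abundant of the 3, had 246 and 302.7 CPM in MI hearts and 467 and 302.9 CPM in Sham hearts (-0.49 ± 0.25), so MI 2 and Sham 2 were nearly equal and the difference was -0.14 without Sham 1. Etfdh, the oxidoreductase that passes the electrons to ubiquinone, had 336 and 410 CPM in MI hearts and 622 and 507 CPM in Sham hearts (-0.60 ± 0.18). The ratio of Etfdh to Etfa in FPKM was 0.282 and 0.287 in MI hearts, against 0.323 and 0.303 in Sham hearts. The ratio of Acaa2 to Acadl was 0.827 and 0.769 in MI hearts, against 1.03 and 1.01 in Sham hearts. Neither ratio overlapped between the groups. Lack of overlap was common: of 18475 single genes in CPM, 4039 had both MI libraries below both Sham libraries and 4594 had them above. The 5 balances without overlap included the shares of Acsl1 and Acsl5, which come from the same sum. Of the 12 shares and ratios computed 7 did overlap, so these are descriptions without a test. Among the 7 were the ratio of Etfa to Etfb (0.752 and 0.732 in MI hearts, 0.64 and 0.858 in Sham hearts) and the share of Acadl among the dehydrogenases Acadvl, Acadl, Acadm and Acads (46.5% and 48.4% in MI hearts, 45.1% and 47.2% in Sham hearts).

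**Figure D5:**
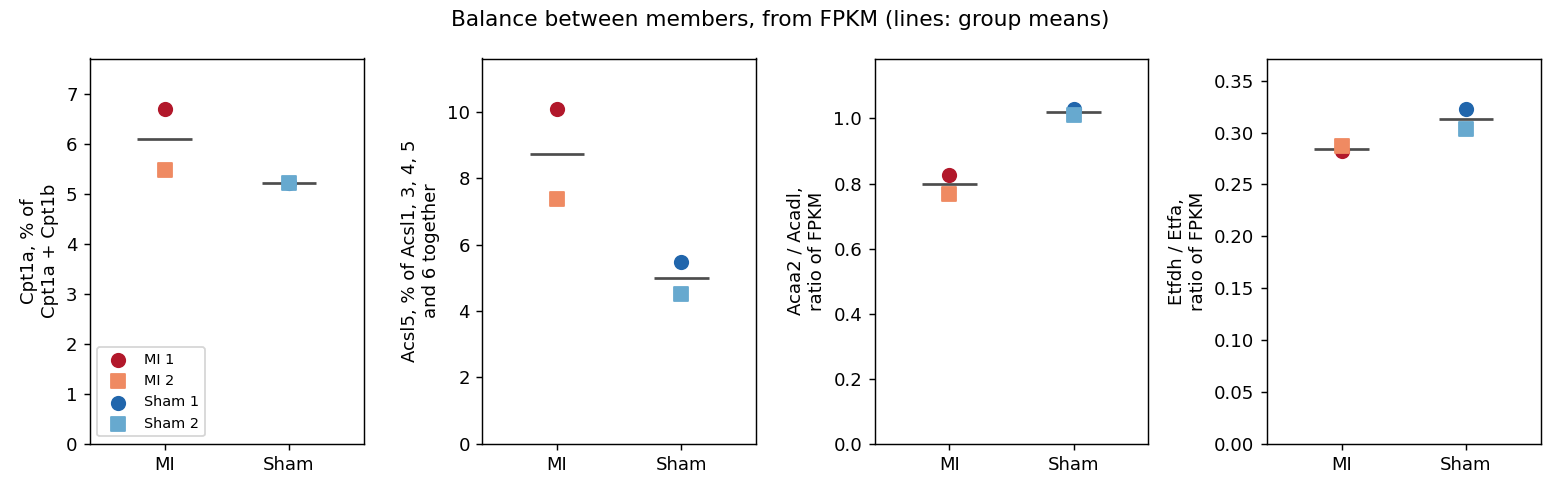
Balance between genes of the pathway in each library, from FPKM: Cpt1a as a percentage of Cpt1a and Cpt1b, Acsl5 as a percentage of the Acsl family, and the ratios of Acaa2 to Acadl and of Etfdh to Etfa; points are libraries and lines group means. Of the 12 balances computed, 5 did not overlap between groups, and 4 of those are drawn (Acaa2 to Acadl: 0.827 and 0.769 in MI hearts, 1.03 and 1.01 in Sham hearts).

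For storage and uncoupling, 1 of 2 genes had an unadjusted p under 0.05. Ucp3, the mitochondrial uncoupling protein of muscle and heart (chromosome 7, 100472990 to 100486432), had 49.3 and 70.8 CPM in MI hearts, against 218 and 82.3 CPM in Sham hearts. The log2 difference, the largest of the 33 genes, was -1.32 ± 0.50, but it was -0.45 without Sham 1 and -1.86 without Sham 2. Sham 1 alone stood far above the other libraries, and MI 2 was close to Sham 2. Fitm1, which helps store fat in droplets, had 34.6 and 37.0 CPM in MI hearts and 49.0 and 40.0 CPM in Sham hearts (-0.31 ± 0.15).

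Other genes of the pathway were taken as whole lists, to be read against the 4.51% of all genes that were lower and the 7.12% that were higher. Of 22 other fatty acid handling genes, 5 were lower (Dbi, Slc25a20, Acad12, Acacb and Acad11) and 1 higher (Fabp5) at an unadjusted p under 0.05 in edgeR, with a median log2 difference of -0.21 (-0.07 without Sham 2). Dbi, the acyl-CoA binding protein, had 51.7 and 48.8 CPM in MI hearts and 95.0 and 82.7 CPM in Sham hearts (-0.82 ± 0.13), and Fabp5, the epidermal-type binding protein, had 56.1 and 44.5 CPM in MI hearts and 34.5 and 36.5 CPM in Sham hearts (0.50 ± 0.16). The others that were lower were Slc25a20, the carnitine-acylcarnitine carrier (-0.53 ± 0.17), Acad12 (-0.52 ± 0.14), the acetyl-CoA carboxylase Acacb (-0.44 ± 0.17) and the dehydrogenase Acad11 (-0.38 ± 0.12). Fabp4, the most abundant gene of this list and also an adipocyte and endothelial gene, had a log2 difference of 0.11 ± 0.13. Of 18 peroxisomal genes, 3 were lower (Ech1, Scp2 and Abcd3) and 0 higher, with a median of -0.22 (-0.13 without MI 1 or without Sham 1, -0.34 without Sham 2). Ech1, a dienoyl-CoA isomerase, had 511 and 585 CPM in MI hearts and 1041 and 830 CPM in Sham hearts (-0.77 ± 0.18), and Phyh, the second most abundant and the enzyme of phytanic acid breakdown, had a difference of -0.40 ± 0.16. Scp2, a sterol carrier and thiolase, had a difference of -0.71 ± 0.18, and the peroxisomal transporter Abcd3 one of -0.51 ± 0.14.

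Of 16 regulators, 2 were lower and 0 higher at the same threshold, with a median log2 difference of -0.16 (-0.02 without Sham 1). Ppara, the receptor PPARα, had 11.5 and 13.1 CPM in MI hearts and 23.8 and 20.6 CPM in Sham hearts (-0.86 ± 0.16), and the coactivator Ncoa1 had 10.6 and 10.4 CPM in MI hearts and 18.1 and 19.9 CPM in Sham hearts (-0.86 ± 0.15). For both, the groups did not overlap. The coactivator Ppargc1a had 112 and 121 CPM in MI hearts, 126 CPM in Sham 1 and 242 CPM in Sham 2 (-0.67 ± 0.33; -0.12 without Sham 2), and the transcription factor Klf15 a difference of -0.06 ± 0.11. Of the 14 PPAR targets outside the 33 genes, 13 were tested and Fgf21 was not. Of the 13, 2 were lower (Cidea and Slc25a20) and 0 higher, with a median of -0.48 (-0.19 without Sham 1, -0.68 without Sham 2). Cidea, a lipid droplet protein, had 22.1 and 27.9 CPM in MI hearts and 54.5 and 58.0 CPM in Sham hearts (-1.17 ± 0.16). Pdk4, the kinase that limits glucose oxidation, had a difference of -0.55 ± 0.26, and Txnip, a thioredoxin-binding protein, of 0.31 ± 0.18. With cardiomyocyte scaling the 4 list medians were 0.04 (other handling), 0.03 (peroxisomal), 0.11 (regulators) and -0.23 (PPAR targets).

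Promoter sequences were available in the RefSeq table for 26 of the 33 genes (31 promoters). In the 250 bases before each start, both strands were searched for AGGTCA, the hexamer that PPARα and related nuclear receptors are known to bind in repeats. It was in 7 of the 31 promoters (22.6%), against 14.0% of the 32851 promoters in the table; the 7 genes were Acadm, Acadvl, Acsl6, Cd36, Cpt1a, Echs1 and Ucp3. The E-box CACGTG was in 1 (3.23%, Slc27a1), against 6.02% of all, and TATAAA in 0, against 12.4% of all. The promoters of the 33 genes had a median GC content of 59.6% and 12 CpG, against 52.4% and 6 CpG over all. A match is a run of letters and not a bound site. The 3 promoters with the hexamer whose genes had an unadjusted p under 0.05 are shown in the direction of the gene, with the hexamer or its reverse complement in capitals, from RefSeq on GRCm38.p6: Acadm at chr3:153944644-153944893 (minus strand), Ucp3 at chr7:100472741-100472990 (plus strand) and Acadvl at chr11:70015429-70015678 (minus strand).
Acadm: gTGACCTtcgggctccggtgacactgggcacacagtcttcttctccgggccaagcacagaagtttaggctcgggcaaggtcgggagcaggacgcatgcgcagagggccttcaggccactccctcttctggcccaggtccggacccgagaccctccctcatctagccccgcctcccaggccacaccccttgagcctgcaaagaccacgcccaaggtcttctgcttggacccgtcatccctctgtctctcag
Ucp3: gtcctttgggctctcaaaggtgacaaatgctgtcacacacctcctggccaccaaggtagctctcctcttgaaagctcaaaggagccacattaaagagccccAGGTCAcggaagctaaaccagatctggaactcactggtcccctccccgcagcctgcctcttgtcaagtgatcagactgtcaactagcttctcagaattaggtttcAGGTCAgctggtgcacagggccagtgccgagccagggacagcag
Acadvl: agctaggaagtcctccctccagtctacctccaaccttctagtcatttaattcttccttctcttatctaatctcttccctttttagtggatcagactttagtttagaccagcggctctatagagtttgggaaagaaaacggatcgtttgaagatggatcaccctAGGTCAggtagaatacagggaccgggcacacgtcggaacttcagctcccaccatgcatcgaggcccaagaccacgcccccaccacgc
The hexamers of Ucp3 begin 149 and 44 bases before the start, that of Acadvl 87 and that of Acadm 249. The other 4 genes with the hexamer had log2 differences of -0.55 (Acsl6), -0.35 (Echs1), -0.28 (Cd36) and -0.10 (Cpt1a).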

How the data were processed

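Poly(A) RNA from mouse heart tissue was made into strand-marked paired-end libraries, 2 for MI and 2 for Sham, per the labels' protocols. The deposited table holds, for each gene and library, an estimated count and an FPKM (per length and library size, by the authors), per the file headers. The tools, per the submitters' processing notes and with no role given, were UMI-tools, StringTie 1.3.4d, HISAT2 2.0.4 and cutadapt 1.9; the build, and whether strand was used in counting, were not given in the sources used here. Positions of 30 of the 33 genes equal those of GENCODE M21 (GRCm38). Low estimated counts pile up at multiples of 4, so a count is not 1 fragment: the lowest count of Acsl6 stands for about 87 fragments, and every other member had at least 2070 estimated counts. Counting error is only part of the spread between libraries.

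Low genes were removed by filterByExpr (minimum count 10, minimum total 15). The rest were scaled by TMM (factors 1.15 and 1.02 for MI, 0.877 and 0.975 for Sham) and tested over all genes in R 4.3.3 with edgeR 4.0.16. The model held group alone, its quasi-likelihood test was 2-sided, and p-values were Benjamini-Hochberg adjusted, with a threshold of 0.05. The biological coefficient of variation was 0.368. The smallest 2-sided p of an exact permutation test on 2 against 2 libraries is 0.33, so none was used. DESeq2 1.42.0 and limma 3.58.1 on log2(FPKM + 1) were alternatives, as were other scalings and filters and leaving out each library. The steps were tested on simulated data, but no outcome is given here and nothing above rests on it. Replicates were not one library deposited again (chi-square per degree of freedom 22.9 for MI and 34.2 for Sham).

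The members, lists and tests were chosen with earlier results of these data known. Values are given in full for members with an unadjusted p under 0.05 and for the most abundant of each step, and of each other list the 2 most abundant genes and those with an unadjusted p under 0.05 are named; other members were added for their role.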

Additional observations from a re-analysis of the deposited data

How the results depend on the processing

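The sign of 28 of the 33 members was the same under all 15 alternatives, and 5 changed sign under at least 1. DESeq2 called 635 genes and 5 members, where edgeR called 0 of each; without each replicate in turn edgeR called 0 to 14 genes and 0 members. Members lower at an unadjusted p under 0.05 numbered 15, with 2 under cardiomyocyte scaling, 6 with total counts, 9 and 8 in limma on log2(FPKM + 0.1) and on genes of mean FPKM at least 1, and 1 to 20 without each replicate. Over all genes, 277 of 18475 were lower at this threshold with cardiomyocyte scaling and 296 with total counts. In limma 483 of 26265 were lower on log2(FPKM + 0.1), and 207 of 10715 on genes of mean FPKM at least 1. On log2(FPKM + 1) 11 members were lower, against 462 of 26265 genes. The fits without each replicate leave 1 library in a group, so their counts are not set against all genes. The replicate numbers share no stated origin, and the deviations of MI 1 and Sham 1 from their group means had a correlation of -0.0429. With the replicate block 4 members were lower at an unadjusted p under 0.05 in edgeR, against 552 of all 18475 genes. The median of the members was -0.23 with cardiomyocyte scaling, -0.25 with total counts and -0.24 in the 3 limma fits on FPKM, and -0.55 to -0.30 without each replicate. Minus the median of all genes, a quantity added after seeing the data, it was -0.60 to -0.32 without each replicate. A change of library scaling shifts all genes nearly alike, and it was -0.49 with cardiomyocyte scaling and -0.48 with total counts. In limma it was -0.28 on log2(FPKM + 1), and -0.39 both on log2(FPKM + 0.1) and on genes of mean FPKM at least 1.

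Step medians in the order cardiomyocyte scaling, total counts, limma on log2(FPKM + 1), on log2(FPKM + 0.1) and on mean FPKM at least 1 follow. Uptake had -0.13, then -0.16 in the other 4; activation -0.17, -0.19, -0.11, -0.21 and -0.12; the carnitine shuttle -0.12, then -0.15 in the other 4; the dehydrogenases -0.11, then -0.14 in the other 4; the later steps -0.25, -0.28, -0.28, -0.29 and -0.28; the auxiliary enzymes -0.38, then -0.40 in the other 4; electron transfer -0.24, -0.25, then -0.24 in the other 3. Without each replicate, the range was -0.57 to -0.17 for uptake, -0.48 to -0.20 for activation, -0.51 to -0.22 for the carnitine shuttle, -0.48 to -0.29 for the dehydrogenases, -0.59 to -0.39 for the later steps, -0.74 to -0.45 for the auxiliary enzymes, -0.74 to -0.34 for electron transfer and -1.16 to -0.31 for storage and uncoupling.

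In the same order, the log2 differences that changed sign were 0.04, 0.02, 0.01, 0.01 and 0.01 for Acss1, 0.15, 0.13, 0.10, 0.11 and 0.10 for Cpt1a, 0.16, 0.13, 0.10, 0.10 and 0.10 for Acads, and 0.10, 0.07, 0.06, 0.06 and 0.06 for Hsd17b10. Without each replicate, Acads ranged from -0.30 to 0.07, Hsd17b10 from -0.42 to 0.11 and Cd36 from -0.53 to 0.04. The cause was not tested. Acsl6 had the lowest counts, and with counts divided by 4 its difference was -0.55 as before. What limits the precision of the other members was not tested.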

Other observations

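Among the PPAR targets outside the 33 genes, several stood highest in Sham 1, as Ucp3 did. These genes were chosen after their values were seen. Plin5, a lipid droplet coat protein, had 86.1 and 92.1 CPM in MI hearts, 200.5 CPM in Sham 1 and 81.2 CPM in Sham 2. Angptl4, an inhibitor of lipoprotein lipase, had 22.4 and 9.33 CPM in MI hearts, 36.8 CPM in Sham 1 and 12.03 CPM in Sham 2. Slc25a34, a mitochondrial carrier, had 125 and 138 CPM in MI hearts, 251 CPM in Sham 1 and 140 CPM in Sham 2. The ratio of Sham 1 to Sham 2 was 2.64 for Ucp3, 2.47 for Plin5, 3.06 for Angptl4 and 1.79 for Slc25a34. Of the 13 PPAR targets tested, 7 were highest in Sham 1 (53.8%) and 4 in Sham 2. Of the 12 cardiomyocyte markers, 6 were highest in Sham 1 (50.0%), a similar share. The share was 27.5% for all genes tested, and 30 of the 33 members were highest in Sham 1. The median log2 ratio of Sham 1 over Sham 2 was 0.38 for the PPAR targets and 0.26 for the members. It was 0.04 for the cardiomyocyte markers and 0.02 for all genes tested.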
